A study of Arabidopsis thaliana with 6 samples.

Results

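SBT3.3 and SBT3.5 are a pair of Arabidopsis thaliana genes for subtilases, serine proteases of the plant secretory pathway. They were identified by gene symbol, each on a probe set that the platform annotation gives to that gene alone (261242_at for SBT3.3, AT1G32960, and 261240_at for SBT3.5, AT1G32940). They are 2 of the 13356 genes that the array annotation names in this way. As a family reference, all other genes with a symbol beginning with SBT3. were looked up, and SBT3.12 (AT4G21326, probe set 254415_at) was the 1 other gene found. Genes that the annotation lists by locus tag alone could not be assigned to the family by symbol, so further measured members may stand under such tags.

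The study compared mature rosette leaves of wild type (WT) plants with those of an mlo2 mlo6 mlo12 triple mutant, harvested 5, 6 or 7 weeks from sowing, with 1 Affymetrix array for each genotype and age, 6 arrays in all. The plants were grown under normal conditions, and the labels name no inoculation. The mutant carries mutations in a trio of MLO genes at once, so no result can be assigned to a single MLO gene, and the labels give neither the alleles nor the number of plants per array. Values are log2 RMA values, and nothing in the labels says that arrays came from separately grown plants, so any p-value reflects only how these arrays scatter.

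Subtilases are made as precursors with a propeptide, pass through the secretory pathway and are released to the cell wall space, where they cleave peptides and other proteins. In Arabidopsis, SBT3.3 is known as a regulator of immune priming, the state in which leaves respond faster to later attack, and its expression is linked to salicylic acid signalling. SBT3.5 is known in roots for processing a pectin methylesterase, an enzyme that modifies pectin in the wall. MLO proteins are membrane proteins whose loss gives resistance to powdery mildew fungi.

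The arrays were alike in scale, with medians of 3.80 to 3.87 on the log2 scale over the probe sets tested and mean correlations with the other arrays of 0.970 to 0.982. The lowest of these correlations belonged to the 6-week WT array. Of 17 leaf mesophyll markers, 4 were measured (RCA, PSAN, PRK and SBPASE), at 9.69 to 12.7 in the 6 arrays. The root marker PYK10, 1 of 7 listed, lay at 2.31 to 2.75, below every array median. The guard cell marker FMA, 1 of 4 listed, was at 3.52 to 4.06, and 0 of 7 flower and 0 of 5 seed markers were found. Throughout, a gene counts as measured if the annotation gives a probe set to it alone under the symbol looked up. Genes not found in this way may still be on other probe sets of the array. Because whole leaves were used, more cells of a type and more RNA per cell cannot be told apart in any result. The targeted genes MLO2, MLO6 and MLO12 are on no probe set named here, and a check of the genotype labels by them was not made.

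SBT3.3 stood above WT in the mutant at every harvest. WT arrays of 5, 6 and 7 weeks had log2 levels of 4.69, 5.46 and 5.48. Mutant arrays read 5.70, 6.93 and 6.51 at the same ages. The lowest mutant array, at 5 weeks, was above the highest WT array, at 7 weeks, by 0.22, so the genotypes did not overlap. At equal age the log2 difference, mutant minus WT, was 1.01 (5 weeks), 1.47 (6 weeks) and 1.03 (7 weeks). The mean difference was 1.17 ± 0.26 (SD over the 3 ages), or 2.25-fold. Its level ranked between the 59.5th and the 83.8th percentile of the probe sets of an array, so the probe set was above the array median in all 6 arrays.

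SBT3.5 also stood higher in the mutant at each age. Its WT levels were 4.97, 5.72 and 4.69 on the log2 scale at 5, 6 and 7 weeks. In the mutant they were 5.87, 7.07 and 5.99. The lowest mutant array was above the highest WT array, that of 6 weeks, by 0.14. Differences at equal age were 0.90, 1.34 and 1.302, with a mean of 1.18 ± 0.24 (SD over the 3 ages), or 2.27-fold. Ranks within an array ran from the 60.6th to the 84.9th percentile.

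**Figure D1:**
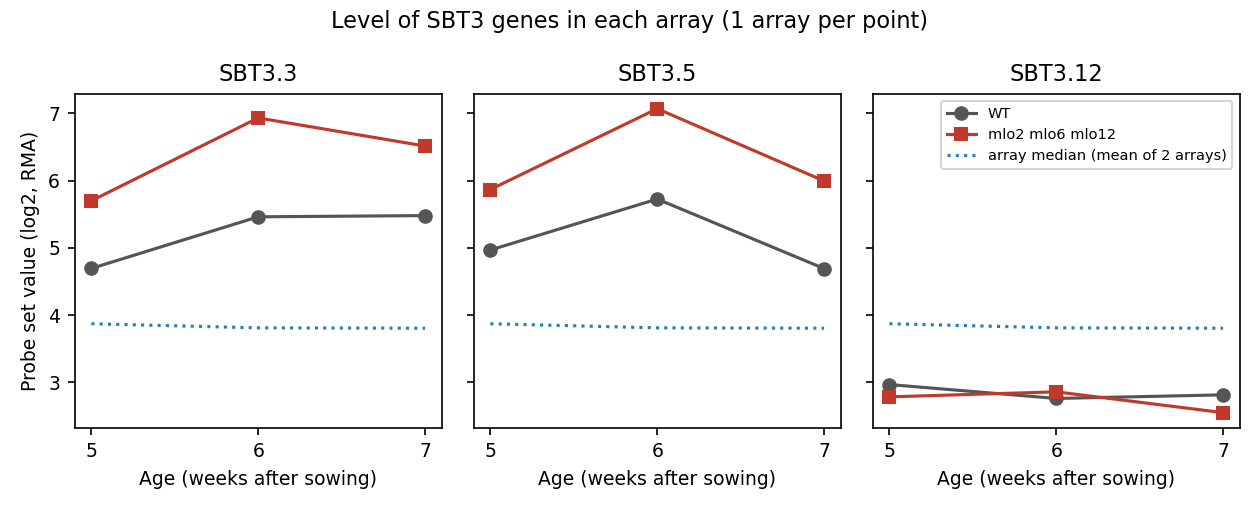
Log2 probe set value of SBT3.3, SBT3.5 and SBT3.12 (y axis) against age in weeks (x axis), 1 array per point, for WT (circles) and the mutant (squares), with the array median as a dotted line. Both SBT3.3 and SBT3.5 are above the median and higher in the mutant at each age, while SBT3.12 stays between 2.55 and 2.97 in all arrays.

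These genotype differences are a description. Both genes were chosen by their measured mutant minus WT difference, so no test of it is given, and agreement between ages was favoured by the choice. As background, limma called 0 of 22746 probe sets (0%) for genotype at an adjusted p of 0.05, with 1482 at an unadjusted p under 0.05, and limma-trend called 1. In 3.42% of probe sets every mutant array was above every WT array. A mean difference of at least 1 log2 unit in favour of the mutant was seen in 0.378% of probe sets. SBT3.3 was 1 of 16 probe sets (0.0703%) higher by at least 1 log2 unit at all 3 ages, and SBT3.5 missed that mark at 5 weeks. At single ages, the share higher by at least 1 log2 unit was 0.875%, 2.96% and 1.43% in order of age. Without both 6-week arrays, the mean difference was 1.02 for SBT3.3 and 1.101 for SBT3.5.

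**Figure D2:**
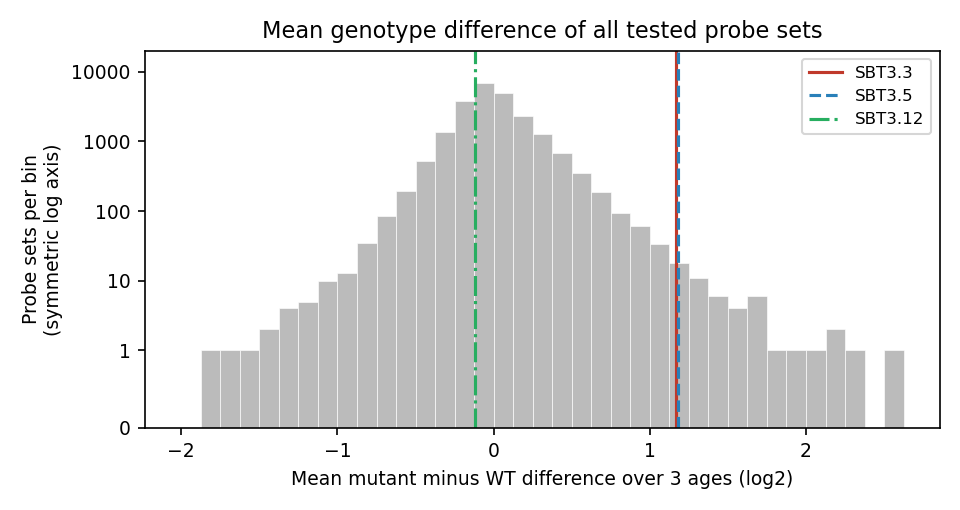
Number of probe sets (y axis, symmetric log scale) by mean mutant minus WT difference over the 3 ages in log2 units (x axis), with lines at SBT3.3, SBT3.5 and SBT3.12. SBT3.3 at 1.17 and SBT3.5 at 1.18 lie in the right tail, and SBT3.12 at -0.12 lies near the middle of the distribution.

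The change of the genotype difference from 5 to 7 weeks was 0.03 for SBT3.3 and 0.40 for SBT3.5 on the log2 scale. These too are descriptions, since the choice favoured stable differences. Over all probe sets limma called 0% for such a change, with 233 at an unadjusted p under 0.05.

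With age, both genes took the same course to 6 weeks and parted after it. From 5 to 6 weeks the SBT3.3 level differed by 0.77 in WT and by 1.23 in the mutant, upwards in both. SBT3.5 differed over the same week by 0.76 in WT and 1.202 in the mutant. From 6 to 7 weeks SBT3.3 differed by 0.02 in WT and by -0.42 in the mutant. SBT3.5 over that week was lower by about 1 log2 unit in both genotypes, with differences of -1.03 in WT and -1.07 in the mutant. The level of SBT3.5 at 7 weeks was thus close to that at 5 weeks, whereas SBT3.3 at 7 weeks remained above its 5-week level by 0.79 in WT and 0.81 in the mutant.

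No age estimate of either gene passed the threshold when all 6 arrays were fitted. For 7 minus 5 weeks, averaged over genotypes, SBT3.3 had an estimate of 0.80 ± 0.17 (SE, log2; limma adjusted p = 0.137), higher in both genotypes. The estimate for SBT3.5 was -0.07 ± 0.17 (limma adjusted p = 0.922), with WT lower by 0.28 and the mutant higher by 0.13. Limma called 0% of probe sets in this comparison, with 3691 at an unadjusted p under 0.05. For 6 minus 5 weeks the estimates were 1.0 ± 0.17 for SBT3.3 and 0.98 ± 0.17 for SBT3.5 (limma adjusted p = 0.111 for both), and 0% of probe sets passed, with 4206 at an unadjusted p under 0.05. For 7 minus 6 weeks SBT3.3 was at -0.20 ± 0.17 (limma adjusted p = 0.896) and SBT3.5 at -1.05 ± 0.17 (limma adjusted p = 0.684), again with 0% passing and 1314 at an unadjusted p under 0.05. The comparisons of adjacent harvests were chosen after the data had been seen. The SE of every age estimate comes from the same residuals as the genotype estimate, which helped to choose these genes, so it may be too small.

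Without the 6-week arrays the 7 minus 5 week estimate of SBT3.3 passed at an adjusted p of 0.0324 (limma), with the same estimate of 0.80. This fit left 1 residual degree of freedom, namely the change of the genotype difference between 5 and 7 weeks. The choice of the genes favoured stable differences, so it favoured this pass too. In that fit 7.72% of all probe sets passed. Leaving out either 6-week array alone gave the same result, because its partner then has no array to be compared with. The labels give no hour or batch of harvest, so leaf age and anything else that both arrays of a harvest share cannot be told apart.

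The parting of both genes at 7 weeks can also be written as a difference within arrays, which restates the changes given above and adds no further evidence. The value of SBT3.3 minus that of SBT3.5 in the same array shifted from 5 to 6 weeks by 0.01 in WT and 0.03 in the mutant. From 6 to 7 weeks it shifted by 1.05 in WT and 0.66 in the mutant. Such a shift shows unequal change of the probe sets within an array, and it has the same direction in both genotypes. It was not tested.

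**Figure D3:**
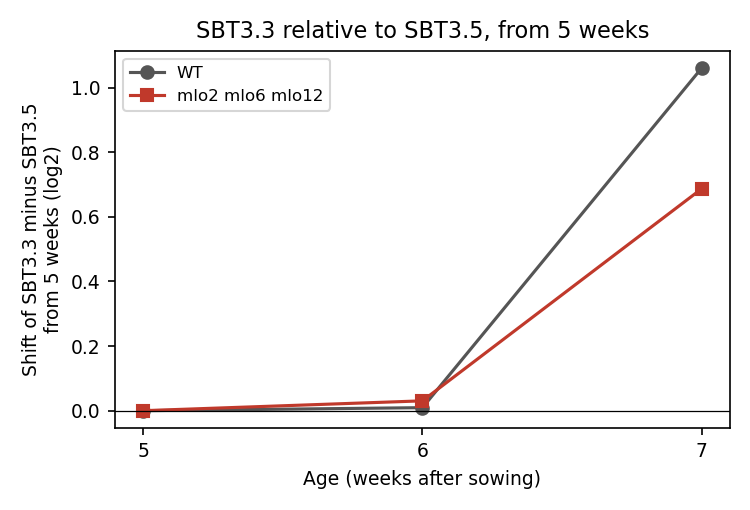
Shift since 5 weeks of the SBT3.3 minus SBT3.5 value in the same array (y axis, log2) against age in weeks (x axis), 1 array per point, for WT (circles) and the mutant (squares). The shift is near 0 at 6 weeks in both genotypes and reaches 1.06 in WT and 0.69 in the mutant at 7 weeks.

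Ordered by level, SBT3.3 ran from WT at 5 weeks (4.69) through WT at 6 and 7 weeks (5.46 and 5.48) and the mutant at 5 weeks (5.70) to the mutant at 7 (6.51) and 6 weeks (6.93). The residual SD of its fit, as moderated by limma, was 0.17. The WT arrays of 6 and 7 weeks differed by less than that. For SBT3.5 the order was WT at 7 weeks (4.69), WT at 5 weeks (4.97), WT at 6 weeks (5.72) and then the mutant at 5 (5.87), 7 (5.99) and 6 weeks (7.07). The moderated residual SD was 0.17 here too. The neighbours WT at 6 weeks and mutant at 5 weeks were not separated by it, nor were the mutant at 5 and 7 weeks. A difference between single arrays scatters more than this SD, so the closest arrays of the genotypes were not clearly apart for SBT3.3 either.

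SBT3.12, the family reference, gave no such pattern. In order of age, its log2 values were 2.97, 2.76 and 2.81 for WT, and 2.78, 2.86 and 2.55 for mutant leaves. The genotypes overlapped, and every value was below the array median, where RMA values of dim probe sets are compressed. The genotype estimate was -0.12 ± 0.12 (SE, log2; limma adjusted p = 0.872) and the 7 minus 5 week estimate -0.19 ± 0.15 (limma adjusted p = 0.674).

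SBT3.5 and SBT3.3 lie close together on chromosome 1 in the TAIR10.1 gene order, separated by a single protein-coding gene, AT1G32950. AT1G32950, and AT1G32970 and AT1G32980 beyond SBT3.3, carry a locus tag and no symbol here, and whether they are subtilase genes too was not settled from the tables used. Such neighbouring paralogs can share sequence, and how far the probes of one also bind transcripts of the other was not tested. The gene order gives a comparison that did not choose the genes. It holds 13 protein-coding entries from 5 before SBT3.5 to 5 after SBT3.3. Besides the pair, 4 of them have a probe set that the annotation gives to that gene alone. This stretch was chosen after values had been seen. AT1G32950, between both subtilases, read 2.67, 3.08 and 2.73 in the WT arrays, by age, and 2.72, 2.85 and 2.70 in the mutant arrays. The genotypes overlapped, and the probe set was below every array median. Its genotype estimate was -0.07 ± 0.12 (SE, log2; limma adjusted p = 0.916).

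AT1G32970, the next gene after SBT3.3, had a genotype estimate of 0.09 ± 0.11, and AT1G32980 one of -0.01 ± 0.11. Both were below every array median too. AT1G32920, before SBT3.5, was well above it, at 7.09, 9.14 and 7.68 in the WT arrays and 6.83, 8.02 and 8.72 in the mutant arrays. Its difference changed sign between ages, at -0.25, -1.12 and 1.05, and its estimate was -0.11 ± 0.42. In 0 of these 4 neighbours did the mutant arrays lie apart from the WT arrays, against 3.42% of all probe sets with the mutant above and 5.5% with it below. None passed for genotype (limma adjusted p = 0.888 to 0.986).

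The other subtilases with a symbol of their own stood near 0 for genotype. The list was fixed with earlier results of these data known. Of its 5 measured genes 2 had estimates above 0 and 3 below, none passed, and the median was -0.00128 on the log2 scale, against -0.03 over all probe sets. After all arrays were set to 1 common median, 1 of 5 was above 0, and after a second quantile normalization 3 of 5, so no direction is read from these estimates. The estimates furthest from 0 were those of SBT5.4 (-0.14 ± 0.13), SBT4.13 (-0.04 ± 0.12) and SBT4.12 (0.01 ± 0.11), where SBT4.12 and SBT4.13 are known for processing the precursor of the abscission peptide IDA. These probe sets were below every array median. ARA12, a subtilase known for its role in seed coat mucilage and named here after its values had been seen, read 7.84, 7.69 and 7.94 in the WT arrays and 8.20, 7.84 and 7.44 in the mutant arrays. Its mutant minus WT difference was 0.35 in the youngest and -0.50 in the oldest leaves, and its estimate was -0.00128 ± 0.20.

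A further 3 subtilases have symbols that the list rule missed and were added after their values had been seen. S1P, a Golgi protease that releases membrane-bound transcription factors, was at 0.05 ± 0.12. SBTI1.1, which acts on a phytosulfokine precursor, was at 0.13 ± 0.20, and ATSBT5.2 was at -0.06 ± 0.14. With these, 4 of 8 measured genes were above 0 and 0 passed. SBTI1.1 and ATSBT5.2 were below every array median, as were 5 of the 8 in all, where RMA values of dim probe sets are compressed. In 0 of the 8 did the genotypes lie apart, against 3.42% of all probe sets with the mutant above and 5.5% with it below. No test of SBT3.3 or SBT3.5 against the other subtilases was made, since their genotype contrast had chosen them.

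**Figure D4:**
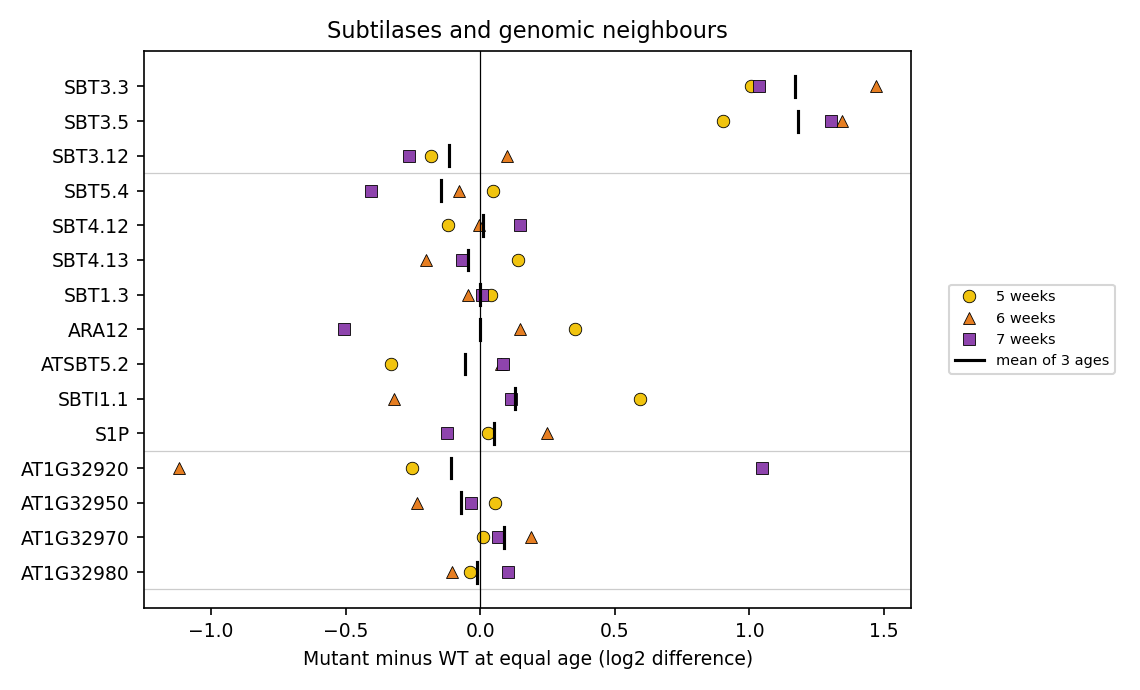
Mutant minus WT log2 difference (x axis) at 5, 6 and 7 weeks (circles, triangles and squares) with the mean over ages (bar) for the SBT3 genes, the other subtilases and the genomic neighbours (y axis, 1 gene per row). SBT3.3 and SBT3.5 lie between 0.90 and 1.47 at every age, and the mean of each other gene lies between -0.14 and 0.13.

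Pectin methylesterases are enzymes whose pro-regions are cut by subtilases. For this reason the genes with a symbol beginning with PME were listed, with earlier results of these data known. The array names 3 such genes, and 2 of them had every mutant array above every WT array, against 3.42% of all probe sets. PMEPCRF, a pectin methylesterase, read 7.50, 7.39 and 7.21 in the WT arrays and 8.15, 8.68 and 7.80 in the mutant arrays. Its genotype estimate was 0.84 ± 0.18 (SE, log2; limma adjusted p = 0.690). PME61, another pectin methylesterase, read 5.27, 5.19 and 5.43 in the WT arrays and 5.90, 5.72 and 5.83 in the mutant arrays, with an estimate of 0.51 ± 0.11 (limma adjusted p = 0.690). The third, PMEAMT, is a phosphoethanolamine N-methyltransferase that shares only the letters of the symbol, and it was at -0.03 ± 0.13.

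A further 2 symbols, beginning with ATPME, were added after their values had been seen. ATPMEPCRB, also called PME41, read 3.92, 3.52 and 3.27 in the WT arrays and 4.64, 5.23 and 4.74 in the mutant arrays. The mutant was higher by 0.72, 1.70 and 1.47 at 5, 6 and 7 weeks, and the estimate was 1.299 ± 0.22 (limma adjusted p = 0.690). ATPMEPCRD was at -0.33 ± 0.16 (limma adjusted p = 0.780), with differences of -0.49, -0.52 and 0.03. None of these 5 genes passed for genotype, age or their interaction.

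The list for the immune pathways that SBT3.3 is linked to was fixed with earlier results of these data known, so its counts are descriptions. Of its 24 genes 7 were found by symbol on a probe set of their own, and all 7 estimates were above 0, with a median of 0.40. The other genes listed may be on probe sets not named here, so the 7 do not stand for the whole list. Over all probe sets 43.7% were above 0 with a median of -0.03, and among those with a mean of at least the median, 54.5% with a median of 0.03. None passed, and 3 of the 7 were lower in the mutant at 5 weeks. UGT76B1, a glucosyltransferase that conjugates salicylic acid and the related signal isoleucic acid, read 3.64, 3.98 and 3.33 in the WT arrays and 6.19, 5.74 and 4.78 in the mutant arrays. Its estimate was 1.92 ± 0.24 (SE, log2; limma adjusted p = 0.660). WRKY53, a transcription factor of senescence and defence, was lower in the mutant at 5 weeks, by -0.58, and higher by 1.08 and 1.84 at 6 and 7 weeks. GRX480, a glutaredoxin of salicylic acid responses, differed by 1.104, -0.54 and 0.97. In 2 of the 7, UGT76B1 and the receptor EFR (0.18, 0.37 and 0.64 higher), the genotypes did not overlap. Every mutant array was above every WT array in both, as in 3.42% of all probe sets. EFR was below the array median in every array except that of the mutant at 7 weeks, and RMA values of dim probe sets are compressed. For BIK1, a kinase of immune receptors, the differences were 0.15, 0.43 and 0.51. SAG101, a partner of EDS1 in immunity, differed by -0.48, 0.65 and 0.59, and the transcription factor WRKY6 by -0.37, 0.90 and 0.64, both lower in the mutant at 5 weeks like WRKY53. EFR, BIK1, SAG101 and WRKY6 lie outside the 3 of largest estimate and were named after their values had been seen.

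**Figure D5:**
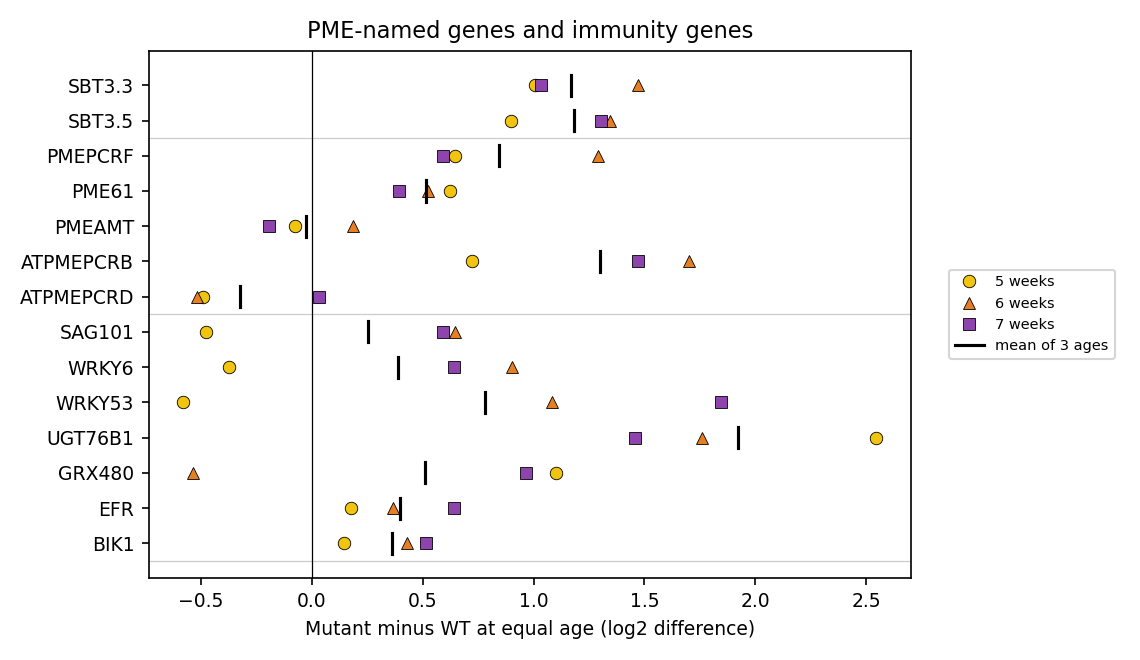
Mutant minus WT log2 difference (x axis) at 5, 6 and 7 weeks (circles, triangles and squares) with the mean over ages (bar) for SBT3.3, SBT3.5, genes with PME in the symbol and immunity genes (y axis, 1 gene per row). PMEPCRF, PME61, ATPMEPCRB, UGT76B1, EFR and BIK1 are above 0 at each age, and WRKY53 runs from -0.58 to 1.84.

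Senescence markers were read beside the subtilases. The mean log2 level of the 3 measured of 7 senescent leaf markers (SAG29, WRKY6 and WRKY53) was, by age, 4.55, 4.72 and 4.73 in the WT arrays and 4.24, 5.18 and 5.56 in the mutant arrays. This mean was lower in the mutant at 5 weeks and higher at 6 and 7 weeks. So were WRKY6 and WRKY53, which are also in the immunity list. The mutant minus WT difference of SAG29 was 0.02, -0.62 and 0.02 by age. At 5 weeks SBT3.3 and SBT3.5 were higher in the mutant by 1.01 and 0.90. SAG29 was below every array median. The part of leaf senescence in the values of both subtilases was not tested.

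The genes most like each subtilase over the 6 arrays were found by Pearson correlation of log2 levels, among 2522 probe sets with 1 gene, a mean of at least the median and a range of at least 1 log2 unit. The arrays fall into both genotypes, so a high correlation largely restates the gap between them, and it is given as a description. For SBT3.3 the nearest were AT3G60450 (r = 0.976), AT4G39670 (r = 0.970), AT3G60420 (r = 0.963), AT1G08050 (r = 0.954) and AT5G38900 (r = 0.953). AT3G60450, the first of them, read 6.59, 7.27 and 7.19 in the WT arrays and 7.34, 8.22 and 7.64 in the mutant arrays. For SBT3.5 the nearest were AT4G01870 (r = 0.990), AT5G60800 (r = 0.990), AT5G39670 (r = 0.988), AT5G52810 (r = 0.980) and AT4G10360 (r = 0.978). AT4G01870 read 5.22, 5.65 and 4.80 in the WT arrays and 5.70, 6.48 and 5.83 in the mutant arrays, with the same order of ages within each genotype as SBT3.5. The lists shared 0 genes. SBT3.3 and SBT3.5 had r = 0.847 with each other, which placed SBT3.5 60th in the list of SBT3.3 and SBT3.3 49th in that of SBT3.5.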

How the data were processed

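The deposited table holds log2 values that the authors made with RMA, per the submitters' processing notes (background correction, quantile normalization and 1 value per probe set). The RMA version is not given in the sources used here; that the scale is log2 follows from the range of the values. RMA makes array distributions alike, so a change in total mRNA cannot be seen. Of 22810 probe sets, 64 controls were set aside and 22746 tested. The platform annotation gave 1 gene for 13513, several for 503, and did not list 8730. Gene identifiers were matched to RefSeq entries of TAIR10.1 (13436 matched). Scanner intensities were not used here, and the number of arrays limits the precision.

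Tests used limma 3.58.1 in R 4.3.3 on all 22746 probe sets, with terms for genotype and for each of 3 ages (2 residual degrees of freedom), eBayes and Benjamini-Hochberg adjustment at a threshold of 0.05. The interaction took age as a number over the 2 weeks from first to last harvest. The code was tested on simulated data. The genes named were both subtilases, other SBT3. symbols, the 3 members of largest absolute genotype estimate in each fixed list, the array markers, and the 5 genes of highest correlation with each subtilase, plus those said to be added or named after their values had been seen. Members and lists were chosen with earlier results of these data known. Alternatives were limma-trend, no moderation, age as a number, further scalings, no dim probe sets, and arrays left out.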

Additional observations from a re-analysis of the deposited data

How the results depend on the processing

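The genotype difference of SBT3.3 lay between 1.02 and 1.25 and that of SBT3.5 between 1.101 and 1.32 over 9 alternatives each. These were 1 array or both 6-week arrays left out, arrays shifted to the same median, and a second quantile normalization. Each difference moved by less than its SD over ages. An array left out takes its partner of the same age out of this difference, so either array of an age gave the same value. Such alternatives are means of the differences at the remaining ages, which helped to choose the genes, so they are no independent check. The 7 minus 5 week estimate of SBT3.3 ran from 0.68 to 0.92 with 1 array left out. It was 0.80 without the 6-week arrays, where it passed (limma adjusted p = 0.0324, 1 residual degree of freedom). Its adjusted p over 13 alternatives was 0.0324 to 0.678. That of SBT3.5 ran from -0.29 to 0.14 with 1 array left out, and turned upwards without the 5-week or the 7-week WT array; its adjusted p stayed at 0.691 or more. For 6 minus 5 weeks SBT3.3 ran from 0.77 to 1.22 over 11 alternatives. The estimate of 0.77 came without the 6-week mutant array, where the 6-week level rests on the WT array alone. That fit left 1 residual degree of freedom, the change of the genotype difference between 5 and 7 weeks. The choice of the genes favoured a small change there, so the pass in that fit alone is not read as a result. Between 6 and 7 weeks, SBT3.3 ran from -0.43 to 0.0252 with 1 array left out, and turned upwards without the 6-week mutant array. Each of these turns upwards came where a harvest was left with 1 genotype, and the estimate then moved towards the change in that genotype. From 6 to 7 weeks SBT3.3 changed by 0.02 in WT and by -0.42 in the mutant. From 5 to 7 weeks SBT3.5 changed by -0.28 in WT and by 0.13 in the mutant. Over all probe sets, 0 passed for genotype except with limma-trend (1). For age, 258 passed with limma-trend, 249 of the 11373 left without dim probe sets, and 1755 without the 6-week arrays; with 1 array left out it was 0 to 1755. For the interaction 0 passed in 12 alternatives. In the alternative named age as a number, the interaction was instead the genotype difference at 7 weeks against that at 5 and 6 weeks. The interaction could not be tested without both 6-week arrays. Replicates carry no number in the labels, and the main model already pairs arrays by harvest age. With 1 array per genotype and age, no value at a single age has an error of its own.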
